A study of Mus with 12 samples.

Results

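The effect of the day of pregnancy on uterine RNA was compared between the implantation stage and the labor stage, with all 12 of the 12 libraries of the series. The comparison asks which genes and programmes follow the day in one stage and not in the other, or follow it in opposite directions. A day effect is the log2 difference of 2 days of the same stage, E0.5 minus E4.5 for implantation and E18.5 minus E15.5 for labor, on the scale log2(FPKM + 0.1), where FPKM is the authors' expression value per transcript length and library size. The stage difference is the implantation day effect minus the labor day effect. Rows of the 2 deposited gene tables were paired by shared Ensembl transcripts, and 21397 of 32724 pairs were tested, those with a mean of at least 0.1 FPKM in each stage. Another 2736 pairs reached that level at implantation only and 1693 at labor only.

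The 4 groups were pregnant ICR mice, an outbred strain, at E0.5 and E4.5 for implantation and at E15.5 and E18.5 for labor, with 3 mice per day, 1 whole uterus per library and no treatment. All were 60 days old at mating by the study's methods, and the series gives 8 weeks. E0.5 and E18.5 were taken as days of low progesterone and E4.5 and E15.5 as days of high progesterone. The total count was 58020989 to 70906881 in the E0.5 and E4.5 libraries, and the labor table holds FPKM only, so that the depth behind it is unknown. Each stage has a table and assembly of its own, so the stage and the table cannot be told apart, and each day effect was taken within its own table.

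At mating the uterus is under estrogen, which drives secretion by the epithelium, and neutrophils and other immune cells are drawn in. Rising progesterone then prepares the stroma and epithelium to receive the embryo and to build the decidua, the maternal tissue around it. Towards labor the progesterone signal wanes, and the smooth muscle gains the receptors and channels with which it contracts.

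Some libraries held RNA of tissues other than the uterus or stood apart, and their values are given before the results. Summed FPKM of the 16 paired ovary markers was 1524 in E4.5 replicate 3 and 9.92 to 16.3 in the other 5 implantation libraries, and the same library had 279 FPKM over 15 smooth muscle genes against 935 to 1417 in those 5. Decidual genes summed to 1451 FPKM in E15.5 replicate 1 and to 65.2 to 134 FPKM in the other 5 labor libraries, of which the decidual prolactin Prl8a2 alone made 1342 FPKM and 40.2 to 86.0 FPKM. Placental genes summed to 159.7 to 223 FPKM in the E18.5 libraries, to 114, 13.1 and 9.53 FPKM in E15.5 replicates 1 to 3 and to 0.899 to 1.63 FPKM in the implantation libraries. The spongiotrophoblast marker Tpbpa was listed at 0 in the 6 implantation libraries and at 31.9 to 52.7 FPKM at E18.5. Yolk sac genes summed to 24.7, 157 and 1064 FPKM in E15.5 replicates 1 to 3 and to 313, 805 and 145 FPKM in those of E18.5. Oviduct genes summed to 109 FPKM in E4.5 replicate 3 and to 14.5 to 46.0 FPKM in the other implantation libraries. Fat genes summed to 281 FPKM in E0.5 replicate 1 and to 21.6 to 129 FPKM in the other implantation libraries. The smooth muscle and epithelial lists had summed FPKM of at least 279 and 119 in every library, both lowest in E4.5 replicate 3. These lists do not tell uterus from other organs, and the share of uterine tissue was not tested. In such bulk samples fewer cells of a type and less RNA per cell cannot be told apart. The part of the non-uterine RNA in the results was not tested beyond leaving out each library.

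**Figure D1:**
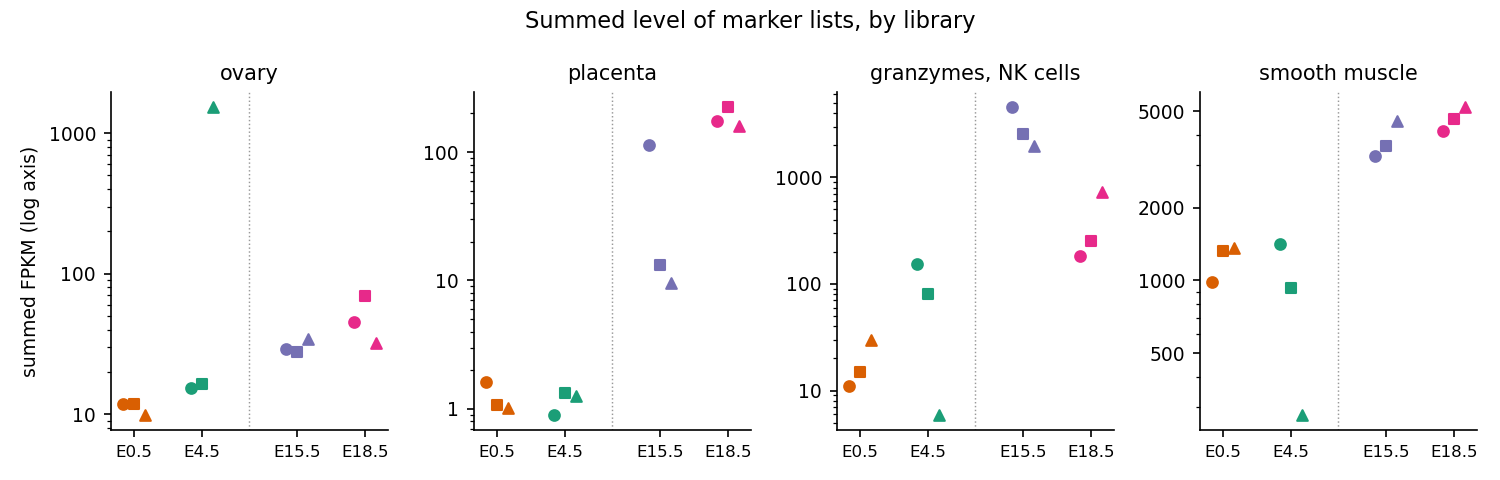
Summed FPKM (vertical, log axis) of 4 marker lists in each library, by day of pregnancy (horizontal), with circles, squares and triangles for replicates 1, 2 and 3. E4.5 replicate 3 stands apart for ovary markers (1524 FPKM) and smooth muscle genes (279 FPKM), and placental genes are highest at E18.5 (159.7 to 223 FPKM).

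The day effect differed between the stages in 577 of the 21397 pairs (2.70% of those tested, adjusted p under 0.05 in limma with Benjamini-Hochberg adjustment). It was higher at implantation in 279 pairs (1.30%) and lower in 298 (1.39%). By the study's criterion, an absolute log2 difference of 1 or more at an unadjusted p under 0.05, 2553 pairs differed (11.9%). Of the 577 pairs, 434 passed that criterion for the day effect of the implantation stage only, 25 for that of the labor stage only, 7 for both in the same direction and 49 for both in opposite directions, while 62 passed it in neither stage. Protein-coding genes made up 488 of them, 3.50% of the class, and known lncRNAs 24, 1.01% of the class. The day effects were wider at implantation, with a standard deviation over pairs of 0.86 against 0.53 at labor. At an adjusted p under 0.05 in limma, 2906 pairs had a day effect at implantation and 17 at labor. The labor day effects counted here and below, also those of reversed pairs, were judged by unadjusted p. Over the 21397 pairs the 2 day effects had a Pearson r of 0.19 and a Spearman rho of 0.17, a description over genes of the same 12 libraries.

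The count of called pairs depended on single libraries and its split on the scaling. It was 1264 without E4.5 replicate 3 and 187 without E18.5 replicate 2. In between it was 198 without E15.5 replicate 2, 261, 288 and 354 without E18.5 replicate 1, E18.5 replicate 3 and E15.5 replicate 3, and 333, 313 and 376 without E0.5 replicate 1, E0.5 replicate 2 and E4.5 replicate 1. All 577 pairs kept their direction without each of the 12 libraries, 165 kept the call each time, and 571 were also called without E4.5 replicate 3. The median stage difference of all pairs was -0.14, and it was 0.01 when libraries were scaled to their 75th percentile and -0.03 after quantile scaling. With these scalings 413 of 625 and 387 of 626 called pairs were higher at implantation, against 279 of 577 without them.

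**Figure D2:**
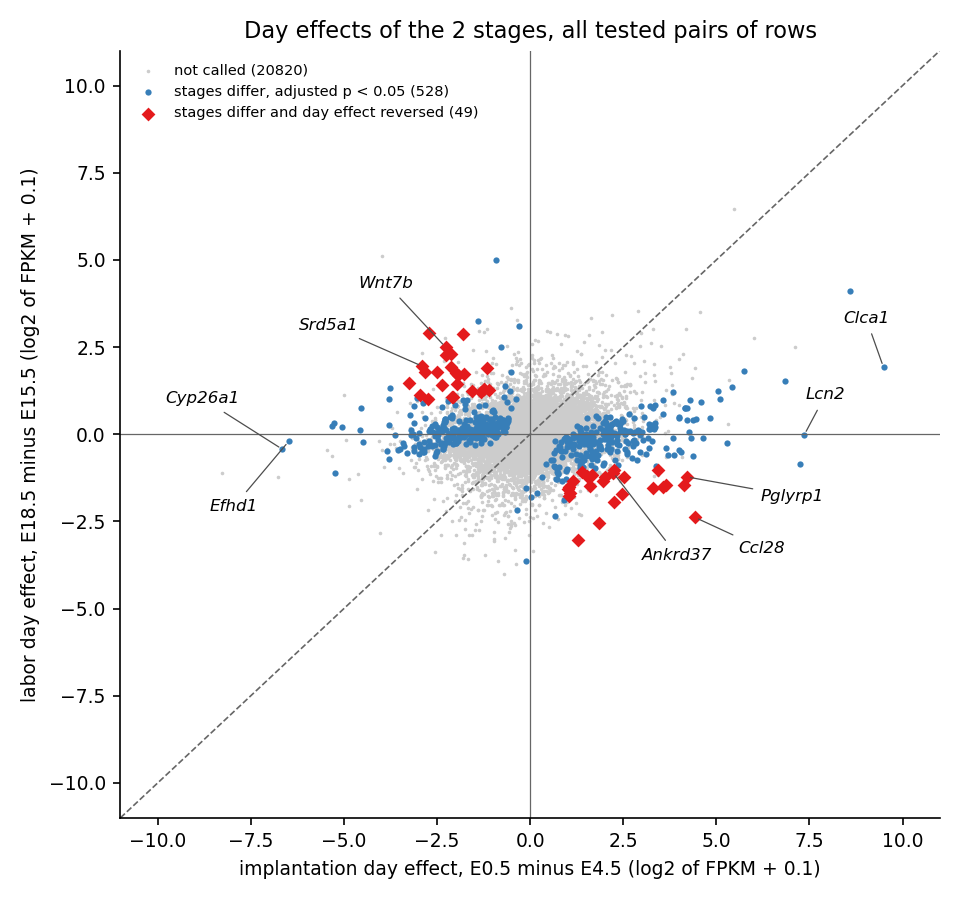
Implantation day effect (horizontal) against labor day effect (vertical) of the 21397 tested pairs, both on log2(FPKM + 0.1), with the dashed line where the stages have equal effects. The 528 called pairs that did not reverse (blue) lie mostly along the horizontal axis, and the 49 reversed pairs (red) lie in the upper left and lower right.

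The day effect turned round in 49 pairs (0.229% of those tested): both day effects passed the study's criterion with opposite signs, and their difference had an adjusted p under 0.05. E0.5 and E15.5 were the higher days in 25 pairs, and E4.5 and E18.5 in 24. In 43 of the 49 the libraries of the days did not overlap in either stage. Choosing pairs by the size and p of both day effects largely brings this about, so it adds no support. Of the 49, 26 kept the call without each of the 12 libraries, and 14 had at least 1 FPKM in both stages. Those 14 are 10 pairs with E0.5 and E15.5 higher and 4 pairs with E4.5 and E18.5 higher. The reversed pairs numbered 74 without E4.5 replicate 3, 30 without E15.5 replicate 2 or E18.5 replicate 1 and 26 without E18.5 replicate 2.

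Among the genes with E0.5 and E15.5 higher, Ccl28, a chemokine of mucosal epithelia, had the largest stage difference of those with at least 1 FPKM in both stages. In replicates 1 to 3 it had 9.69, 12 and 11.4 FPKM at E0.5 against 0.257, 0.253 and 1.0 FPKM at E4.5. It had 50.9, 39.6 and 22.5 FPKM at E15.5 and 5.61, 6.05 and 9.16 FPKM at E18.5. The days did not overlap in either stage, and the day effect was 4.42 at implantation and -2.38 at labor, a stage difference of 6.80 (standard error 0.60, adjusted p = 4.39e-04 from limma). Pglyrp1, which binds bacterial peptidoglycan, had 47.0, 38.4 and 30.4 FPKM at E0.5 against 1.67, 2.44 and 1.89 FPKM at E4.5. At labor it had 8.44, 6.82 and 5.56 FPKM at E15.5 against 3.38, 2.09 and 3.37 FPKM at E18.5. Its swing was thus larger at implantation, with day effects of 4.2 and -1.22 and a stage difference of 5.42 (standard error 0.35, adjusted p = 8.62e-05). Padi2, an enzyme that turns arginine of proteins into citrulline, had 13.8, 9.82 and 24.8 FPKM at E0.5 against 3.65, 4.0 and 1.2 FPKM at E4.5. At E15.5 it had 26.7, 15.3 and 9.84 FPKM and at E18.5 3.39, 4.77 and 6.99 FPKM. All 3 libraries of E0.5 and of E15.5 lay above those of the other day, and the stage difference was 4.17 (standard error 0.72, adjusted p = 0.0154). Ccl28, Pglyrp1 and Padi2 kept the call without each of the 12 libraries.

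The same direction was seen in genes of lower level. Avil, the actin-binding protein advillin, had 2.90 to 5.73 FPKM at E0.5, 1.01 to 1.87 at E4.5, 8.78 to 18.7 at E15.5 and 4.17 to 7.99 at E18.5, with a stage difference of 2.72 (adjusted p = 0.0188) that lost its call without E15.5 replicate 2 or E18.5 replicate 2. Serpina3g, a serine protease inhibitor, was higher at E15.5 (3.02 to 4.59 FPKM) than at E18.5 (0.850 to 1.15 FPKM), while at implantation the days overlapped (1.85 to 3.36 against 0.872 to 2.21 FPKM). Its stage difference was 2.75 (adjusted p = 0.0160), and the call was lost without E18.5 replicate 2. Ppp1r3b, which targets protein phosphatase 1 to glycogen, and Myo1g, a myosin of blood cells, had stage differences of 2.48 and 2.47 (adjusted p = 0.0300 and 0.0305), and each kept the call in 4 of the 12 fits that left out a library.

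Ankrd37, a target gene of the hypoxia response, reversed as well, and the study measured an lncRNA named after it by qRT-PCR. Its row spans chr8:45996902-46005707 on the minus strand in coordinates that match GRCm38. It had 3.25, 2.87 and 3.17 FPKM at E0.5, 0.552, 0.504 and 0.70 at E4.5, 4.5, 3.15 and 2.90 FPKM at E15.5 and 1.21, 1.68 and 1.87 FPKM at E18.5. The day effects were 2.23 and -1.10, and the stage difference was 3.33 (standard error 0.31, adjusted p = 6.53e-04), called without each of the 12 libraries. Mmp11, a matrix metalloproteinase at chr10:75923222-75932475 on the minus strand, moved the same way in both stages instead. It had 56.1, 43.4 and 75.1 FPKM at E0.5 against 2.94, 5.91 and 10.2 FPKM at E4.5, and 20.9, 19.2 and 10.5 FPKM at E18.5 against 1.09, 1.98 and 3.14 FPKM at E15.5. With day effects of 3.31 and 3.02, its stage difference was 0.29 (standard error 0.66, adjusted p = 0.855). The primers that the study used for the lncRNAs named after these genes are shown because the lncRNAs alone were not measured here. They are given 5′ to 3′ in lower case, and their positions were not mapped, so whether the rows compared here hold these lncRNAs is unknown.
lncRNA-ANKRD37 forward: tgggcgatgctgttgcttagttg
lncRNA-ANKRD37 reverse: gcgttcactgatgctcctgtctc
lncRNA-MMP11 forward: cagtcgggctttctcacaca
lncRNA-MMP11 reverse: ccggacttgctcccttacaa
The other 2 genes after which lncRNAs with primers of the study are named did not pass. Lama1, a laminin chain, had a stage difference of -3.49 (adjusted p = 0.110) with 26.2 FPKM in E4.5 replicate 3 against 3.28 and 3.47 FPKM in the other E4.5 libraries, and the row that holds Rpl24, a ribosomal protein gene, had 0.15 (adjusted p = 0.835).

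Srd5a1 led the genes with E4.5 and E18.5 higher at such levels. It encodes 5-alpha reductase, which reduces progesterone and testosterone, and its row also holds the transcript Gm17108. It had 1.55, 1.28 and 1.13 FPKM at E0.5 against 10.2, 20.0 and 5.42 FPKM at E4.5. At labor it had 14.2 to 46.8 FPKM at E15.5 and 114, 85.5 and 72.7 FPKM at E18.5. The days did not overlap in either stage, and the day effects were -2.89 and 1.95, a stage difference of -4.84 (standard error 0.68, adjusted p = 0.00643), called without each library. Wnt7b, a Wnt ligand made by epithelium, had 1.33, 1.47 and 2.12 FPKM at E0.5 against 13.4, 14.0 and 2.81 FPKM at E4.5. At labor it had 0.176, 0.208 and 0.586 FPKM at E15.5 and 3.53, 1.76 and 1.46 FPKM at E18.5. E4.5 replicate 3 was thus much nearer to E0.5 than its replicates were. The stage difference was -4.76 (standard error 0.83, adjusted p = 0.0158) and -5.51 without E4.5 replicate 3, and the call was lost without E15.5 replicate 2. Flt1, a receptor of the VEGF family of endothelial growth factors, had smaller but even shifts. It had 1.22, 0.889 and 0.981 FPKM at E0.5, 2.73, 1.91 and 2.36 at E4.5, 2.04, 2.62 and 2.73 FPKM at E15.5 and 6.15, 6.37 and 5.57 FPKM at E18.5. Its stage difference was -2.37 (standard error 0.27, adjusted p = 0.00220), called without each library. Rtn1, a reticulon of the endoplasmic reticulum, had a stage difference of -4.52 (adjusted p = 0.0292) that kept its call in 5 of the 12 fits without a library, and its value in E4.5 replicate 3 was 4.64 FPKM against 0.566 and 1.42 FPKM in the other E4.5 libraries.

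Placental genes were also higher at E18.5 than in E15.5 replicates 2 and 3, as given above, and their part in the labor values of these 4 genes was not tested. Of the 28 paired placental markers, 23 were under 0.1 FPKM at implantation only. The other 35 reversed pairs had under 1 FPKM in at least 1 stage, and in 9 of the 49 all libraries of a day were at 0. Areg, an EGF family ligand induced by progesterone, is such a gene. It was listed at 0 in all E0.5 and E15.5 libraries and had 0.827, 0.341 and 0.332 FPKM at E4.5 and 0.270, 0.798 and 0.0224 FPKM at E18.5, so no fold is given, and its call held in 3 of the 12 fits without a library.

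**Figure D3:**
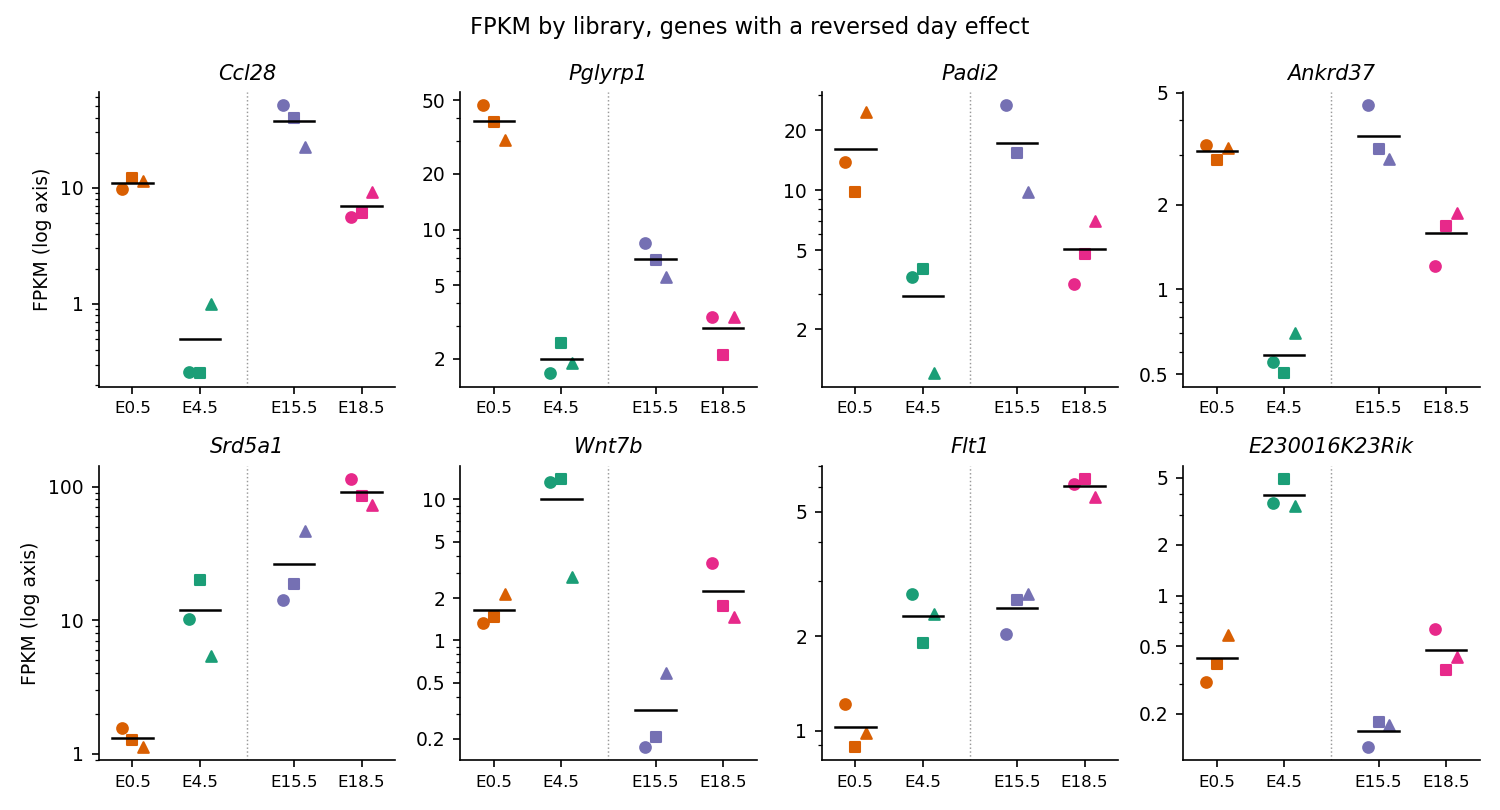
FPKM (vertical, log axis) in each library of 8 genes with a reversed day effect, by day of pregnancy, with the implantation stage left of the dotted line, bars at the mean of each day and circles, squares and triangles for replicates 1, 2 and 3. The upper 4 genes are higher at E0.5 and E15.5, and the lower 4 are higher at E4.5 and E18.5.

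Among pairs with at least 1 FPKM in both stages, most of the other large stage differences belonged to genes that moved with the day at implantation and little at labor. Lcn2, lipocalin 2, an iron-carrier-binding protein of epithelium and neutrophils, had 321, 308 and 318 FPKM at E0.5 against 2.21, 1.22 and 2.23 FPKM at E4.5. At labor it overlapped between the days, with 40.0, 89.8 and 121 FPKM at E15.5 and 101, 60.7 and 68.1 FPKM at E18.5. This gave a stage difference of 7.38 (standard error 0.53, adjusted p = 9.89e-05). Of the neutrophil list 3 of 5 tested members were higher at E0.5 by the study's criterion (6.49% of all pairs), Lcn2, Ltf and Csf3r, and the part of neutrophils was not tested. The receptor Csf3r had 0.275, 1.39 and 0.517 FPKM at E0.5 against 0.0868 to 0.254 FPKM at E4.5, a day effect of 1.31 that passed the study's criterion, while its stage difference did not pass (1.44, adjusted p = 0.250). At implantation S100a9 was listed at 0 in the 6 libraries, S100a8 was at 0 to 1.16 FPKM and Ngp and Camp at no more than 0.654 FPKM. Moving with the day like Lcn2 at implantation and little at labor were Zbp1, a sensor of unusual nucleic acids (4.06 and -0.50), the row of complement factor B and C2 (3.99 and -0.44) and the unstudied gene Gm3336 (4.37 and -0.62). Fcgbp, a mucus protein, had day effects of 6.84 and 1.54, of which both passed the study's criterion. All 4 kept the call without each of the 12 libraries. Clca3b, a member of the chloride channel regulator family, was at 0 in the 3 E4.5 libraries and had 1.21, 3.31 and 3.47 FPKM at E0.5, while its labor values ran from 0.720 to 2.41 FPKM.

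In the other direction, Efhd1, a calcium-binding protein of mitochondria, had 0.547, 0.456 and 0.329 FPKM at E0.5 against 50.6, 42.8 and 50.3 FPKM at E4.5. Its labor values overlapped, with 3.5, 8.4 and 7.91 FPKM at E15.5 and 4.80, 5.41 and 5.86 FPKM at E18.5. The stage difference was -6.28 (standard error 0.41, adjusted p = 8.62e-05). Cyp26a1, which breaks down retinoic acid, had a stage difference of -6.22 (adjusted p = 0.0104), with 72.6 and 85.0 FPKM in E4.5 replicates 1 and 2 and 10.3 FPKM in replicate 3 against 0.199 to 0.425 FPKM at E0.5. Its labor values were 4.0 to 13.5 FPKM and overlapped. Cwh43, an enzyme of membrane anchors, and Cyp1b1, a steroid-metabolising cytochrome, had stage differences of -5.56 and -5.29 and kept the call without each library. S100g, a calcium carrier of epithelium, was higher on the second day of both stages, with day effects of -3.79 and 1.02, of which the second did not pass the study's criterion, and had 865, 915 and 107 FPKM at E4.5 against 21.2 to 52.4 FPKM at E0.5. Its call held in 4 of the 12 fits without a library, and that of Pinlyp, an inhibitor of phospholipase (stage difference -4.25, adjusted p = 0.0427), in 1. Gm9833 was listed at 0 in each library of E15.5 and at 2.86 to 3.4 FPKM at E18.5, and had 0.354 to 1.83 FPKM at implantation.

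Genes of DNA replication and mitosis followed the day at implantation, and few of them passed at labor. Of 30 tested members, 17 had a lower day effect at implantation than at labor and none a higher one, against 1.39% and 1.30% of all pairs. By the study's criterion 29 were higher at E4.5 than at E0.5 (7.56% of all pairs) and 2 were higher at E15.5 than at E18.5 (1.86%). The median day effect was -2.14 at implantation and -0.26 at labor, and the median stage difference was -1.89 against -0.14 over all pairs. Mcm5, a subunit of the replicative helicase, had 0.928, 0.937 and 1.02 FPKM at E0.5, 7.95, 4.35 and 5.43 at E4.5, 3.37, 3.14 and 2.71 at E15.5 and 4.04, 2.76 and 2.47 at E18.5. Its days were fully apart at implantation and overlapped at labor, and the stage difference was -2.44 (adjusted p = 0.00622). Other called members were the helicase subunits Mcm2 (-1.66) and Mcm4 (-1.50), the mitotic kinases Plk1 (-2.82) and Aurka (-2.21), the spindle checkpoint target Cdc20 (-2.31) and cyclin B1 (-3.08, called in 10 of the 12 fits without a library, while the rest of these were called in all 12).

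At labor the median level of the list overlapped between the days. The 2 members with a day effect in both stages were the subunits of ribonucleotide reductase. Rrm2, the small subunit, had 0.575 to 0.967 FPKM at E0.5 against 4.42 to 27.5 FPKM at E4.5, and it had 56.4 to 131 FPKM at E15.5 and 6.70 to 20.8 FPKM at E18.5. Both day effects, -4.04 and -2.83, passed the study's criterion, and the stage difference of -1.21 did not pass (adjusted p = 0.505). The same was true of Rrm1, the large subunit (stage difference 0.15, adjusted p = 0.897). Mki67, a marker of cycling cells, had a stage difference of -1.55 (adjusted p = 0.112). The count of 17 became 6 without E15.5 replicate 2 or E18.5 replicate 2, 7 without E18.5 replicate 1, 8 without E4.5 replicate 1, 9 without E0.5 replicate 1 or E15.5 replicate 3 and 10 without E0.5 replicate 2, and it was 19 without E4.5 replicate 3. With the 75th percentile scaling it was 14.

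Some chaperones and enzymes of protein folding in the endoplasmic reticulum also had a lower day effect at implantation, 6 of 21 tested members (1.39% of all pairs), and the median stage difference was -0.79. By the study's criterion 9 were higher at E4.5 than at E0.5 (7.56% of all pairs), and none passed between E18.5 and E15.5. Hsp90b1, the chaperone GRP94, had 10.6, 11.8 and 14.2 FPKM at E0.5 against 40.7, 41.8 and 42.9 at E4.5, while its labor values lay between 127 and 166 FPKM on both days. Its row also holds 2 smaller genes. The stage difference was -1.69 (standard error 0.23, adjusted p = 0.00561). Hspa5, the chaperone BiP, had a stage difference of -2.24 (adjusted p = 0.0242), and the other called members were Hyou1 (-1.94), Creld2 (-1.68), Sdf2l1 (-1.92) and the disulfide isomerase Pdia4 (-1.11). The calls of Hsp90b1, Hyou1 and Creld2 held without each library, and those of Hspa5, Sdf2l1 and Pdia4 in 6, 3 and 2 of the 12 fits. Of the factors that signal the folding stress, Atf4 (-0.11), Ddit3 (0.09) and Xbp1 (-0.81) did not pass, with adjusted p of 0.846, 0.856 and 0.372, though Xbp1 had -1.27 (adjusted p = 0.00994) without E4.5 replicate 3. The count of 6 was 3 without E0.5 replicate 1, E0.5 replicate 2, E15.5 replicate 2 or any 1 of the 3 E18.5 libraries.

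Interferon-stimulated genes, which act against viruses and are switched on by interferon signaling, moved the opposite way. Of 21 tested members 13 had a higher day effect at implantation (1.30% of all pairs) and none a lower one, and all 21 stage differences were above 0, with a median of 1.93. By the study's criterion 14 were higher at E0.5 than at E4.5 (6.49% of all pairs) and none passed between E18.5 and E15.5. Mx1, an antiviral GTPase, had 1.45, 1.44 and 2.69 FPKM at E0.5 against 0.149, 0.305 and 0.126 FPKM at E4.5. At labor it had 1.89, 3.48 and 1.66 FPKM at E15.5 and 1.62, 1.45 and 1.03 FPKM at E18.5. Its stage difference was 3.42 (standard error 0.50, adjusted p = 0.00775). Ifi44 had 4.64 to 5.22 FPKM at E0.5 against 0.795 to 1.43 at E4.5, overlapped at labor and had a stage difference of 2.27 (adjusted p = 0.00692). Mx1 and Ifi44 kept the call without each library. Further called members were Ifit1 (2.58), the oligoadenylate synthetases Oasl1 (2.82) and Oasl2 (1.93), Isg15, a ubiquitin-like protein (1.86), and Irf1, a transcription factor (1.16), whose calls held in 7, 6, 5, 5 and 1 of the 12 fits without a library.

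Not all of the interferon list moved. Rsad2 (0.60), Ifit3 (0.04) and Bst2 (0.14) did not pass, with adjusted p between 0.614 and 0.991. The count of 13 was 2 without E0.5 replicate 2, E15.5 replicate 2, E18.5 replicate 2 or E18.5 replicate 3, 3 without E0.5 replicate 3, 5 without E18.5 replicate 1, 6 without E15.5 replicate 3 and 7 without E4.5 replicate 1. It was 15 without E4.5 replicate 3 and 14 with either scaling. Genes of macrophages and antigen presentation were tested beside these: 6 of 16 were higher at E0.5 by the study's criterion (6.49% of all pairs), among them the receptor Csf1r (9.71 FPKM on average at E0.5 against 2.70 at E4.5), none passed at labor, and no stage difference was called, against 5 without E4.5 replicate 3 and 2 with either scaling. Their part in the interferon list was not tested.

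**Figure D4:**
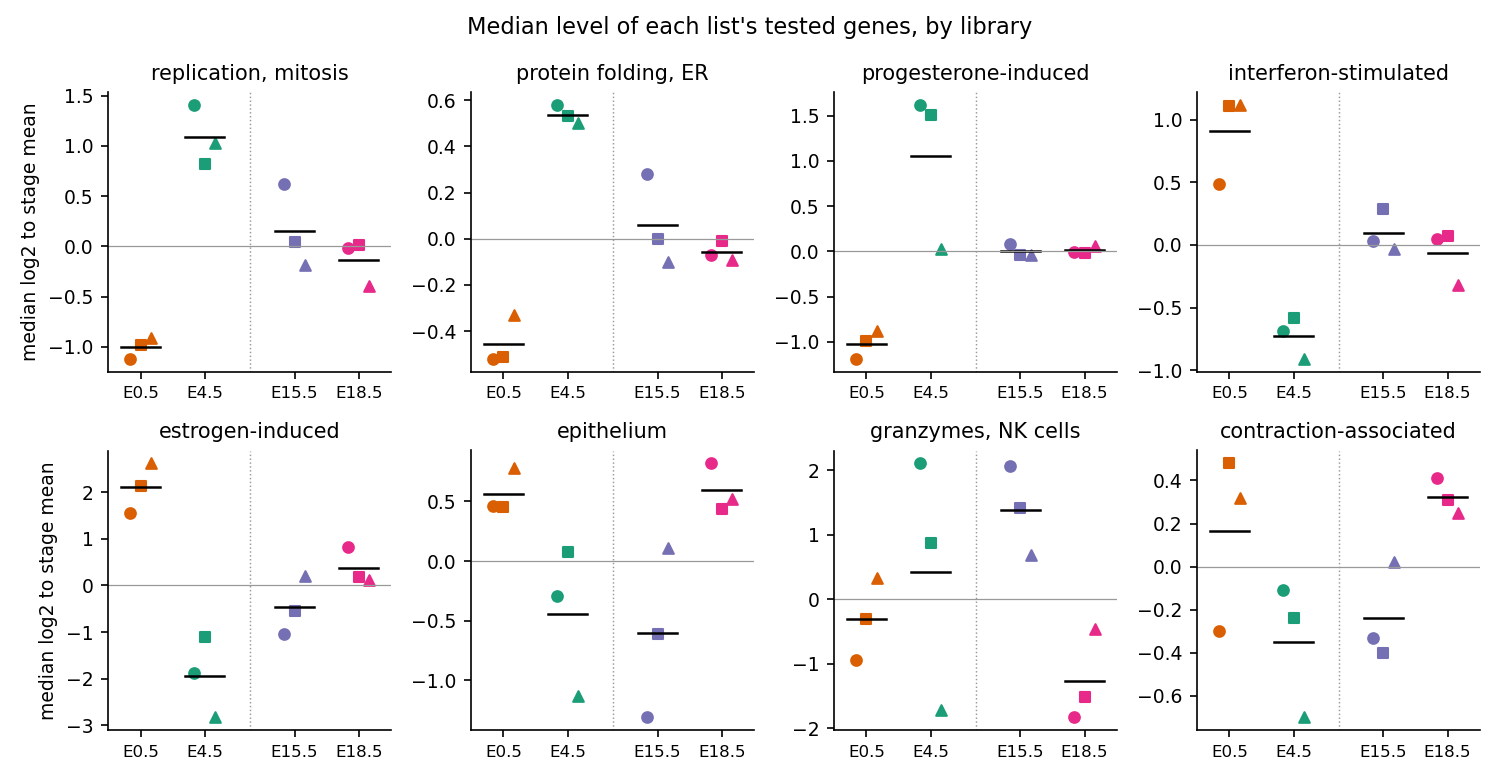
Median log2 level of the tested genes of 8 lists in each library, relative to the mean of the 6 libraries of the stage (vertical), by day of pregnancy (horizontal), with bars at the mean of each day and circles, squares and triangles for replicates 1, 2 and 3. Replication and folding genes lie high at E4.5, and their labor days overlap with E15.5 replicate 1 highest, interferon-stimulated genes lie high at E0.5, and the epithelial list lies high at E0.5 and E18.5.

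Genes known to be induced by estrogen in the uterus were higher on the first day of implantation and, in part, also towards labor, and some had a larger step at implantation. Of 16 tested members 11 were higher at E0.5 and 7 were higher at E18.5 under the study's criterion (6.49% and 1.92% of all pairs), 1 was lower in each stage, and 6 had a higher day effect at implantation (1.30% of all pairs). The median day effect was 4.22 at implantation and 0.74 at labor. The median stage difference was 2.89, and 2.53 without Clca3b, which was at 0 on a day. Sprr2f, a small proline-rich protein of epithelium, had 317, 656 and 774 FPKM at E0.5 against 2.57, 2.11 and 0.370 at E4.5. At labor it had 61.2, 18.2 and 65.4 FPKM at E18.5 against 1.14, 2.82 and 3.78 at E15.5. It thus moved the same way in both stages, and the stage difference of 4.48 (adjusted p = 0.0418) kept its call in 4 of the 12 fits without a library. Muc4, a membrane mucin, was similar, with day effects of 5.74 and 1.82 and a stage difference of 3.92 (adjusted p = 0.0244) that was called in 8 of those fits. Ltf, lactoferrin (day effects 6.01 and 2.77), and the mucin Muc1 (4.44 and 1.91) passed in both stages, and their stage differences of 3.24 and 2.53 did not (adjusted p = 0.106 and 0.123). Without E4.5 replicate 3 that of Ltf was 4.02 (adjusted p = 0.0175). Lcn2 and complement C3 (4.0 and 0.46) passed at implantation only, the stage difference of C3 (3.55, adjusted p = 0.0333) held in 2 of the 12 fits, and Padi2 reversed. The count of 6 was 3 without E0.5 replicate 3, E15.5 replicate 2, E18.5 replicate 2 or E18.5 replicate 3.

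Of 16 tested genes induced by progesterone before implantation, 9 were higher at E4.5 by the study's criterion (7.56% of all pairs) and 6 had a lower day effect at implantation than at labor (1.39%). In the other direction Gata2, a transcription factor, was higher at E0.5 (day effect 1.2), and 4 of the 16 stage differences were above 0, none of them called. At labor 1 member passed, Areg, and the median stage difference was -1.85, or -1.66 without the 2 genes at 0 on a day. Ptch1, the hedgehog receptor, had 2.82, 2.43 and 2.34 FPKM at E0.5 against 8.89, 7.20 and 9.14 at E4.5, and 0.864 to 1.40 FPKM at labor with overlap. Its stage difference was -1.93 (standard error 0.25, adjusted p = 0.00548). Bmp2, a ligand that promotes decidual growth, had 0.484, 0.521 and 0.580 FPKM at E0.5 against 8.25, 4.92 and 3.97 at E4.5, with 0.536 to 1.06 FPKM at labor (stage difference -3.16, adjusted p = 0.00622). Fst, the activin antagonist follistatin, had a stage difference of -3.11 (adjusted p = 0.00658) and labor values of 9.10 to 21.8 FPKM. Ptch1, Bmp2, Fst and Cyp26a1 were called without each library. The progesterone receptor Pgr itself had a stage difference of 0.06 (standard error 0.83, adjusted p = 0.980). This small value does not show an unchanged receptor, because the E4.5 libraries fell on both sides of E0.5 (3.45 to 6.6 FPKM). Replicate 3 of E4.5 lay below that range at 1.31 FPKM, and replicates 1 and 2 lay above it at 8.86 and 9.52 FPKM. E4.5 replicate 3 had a summed 87.5 FPKM over this list against 236 and 272 FPKM in the other E4.5 libraries, and without it 8 members were called and the median was -2.74.

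Ligands and antagonists of the Wnt and BMP pathways were called in 5 of 25 tested members, all with a lower day effect at implantation (1.39% of all pairs). By the study's criterion 10 members were higher at E4.5 (7.56% of all pairs) and 1 at E0.5, Dkk2, and 5 were higher at E18.5 (1.92%) and 1 at E15.5, Id2. Besides Bmp2, Fst and Wnt7b these were Nog, the BMP antagonist noggin (-3.61, adjusted p = 0.0482), and Id1, a target of BMP signaling (-1.80, adjusted p = 0.0263), whose calls held in 1 and 6 of the 12 fits without a library. Id1 had 6.14 to 8.91 FPKM at E0.5 against 10.1 to 13.9 at E4.5, and 3.50 to 6.84 FPKM at E15.5 and 8.69 to 12.4 at E18.5, so the second day of each stage was higher. Its labor day effect of 1.08 passed the study's criterion and that of implantation, -0.71, did not reach a log2 of 1. Wnt16 had the same pair of signs, -1.32 and 1.27, without a call of the difference (adjusted p = 0.116), and the stage differences of Wnt5a and Wnt4 did not pass. The count of 5 was 2 without E15.5 replicate 2 and 3 without E0.5 replicate 2, E4.5 replicate 1, E18.5 replicate 1 or E18.5 replicate 2, and without E4.5 replicate 3 6 were lower and 2 higher.

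In the list of hypoxia response and glycolysis 3 of 26 tested members were called, all with a higher day effect at implantation (1.30% of all pairs), and the median stage difference was 0.26. Egln3 and Egln1, the oxygen-sensing prolyl hydroxylases that mark the hypoxia factor for breakdown, are themselves induced by it, and the third gene was Ankrd37. Egln3 had 14.0, 14.5 and 21.2 FPKM at E0.5, 1.46, 0.903 and 0.798 at E4.5, 6.71, 4.84 and 4.75 at E15.5 and 2.93, 5.06 and 2.94 at E18.5. The stage difference was 4.46 (standard error 0.40, adjusted p = 4.39e-04). Egln1 had a stage difference of 1.45 (adjusted p = 0.00795), and all 3 genes were called without each library. The growth factor Vegfa had 0.12 (adjusted p = 0.868) and the glucose transporter Slc2a1 -1.21 (adjusted p = 0.234, and -1.73 with adjusted p = 0.00475 without E4.5 replicate 3), and the glycolytic enzymes Pgk1 (0.69), Ldha (0.84) and Aldoa (0.27) did not pass. The count was 5 with either scaling, and 7 higher and 2 lower without E4.5 replicate 3.

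Some programmes followed the day at labor by the study's criterion, which uses unadjusted p. The granzymes and other genes of natural killer cells were the clearest by size: 11 of 12 tested members were higher at E15.5 by the study's criterion (1.86% of all pairs), and in all 12 the E15.5 libraries lay above those of E18.5 (8.56% of all pairs). Gzmb, a cytotoxic protease, had 180.8, 92.3 and 51.3 FPKM at E15.5 and 3.03, 4.44 and 14.2 FPKM at E18.5. At implantation it had 1.07, 1.31 and 5.44 FPKM at E0.5 against 13.4, 3.82 and 0.659 FPKM at E4.5, where the days overlapped. The median stage difference of the list was 1.75 and that of labor alone -2.52, but no member had a called stage difference (Gzmb 3.30, standard error 1.39, adjusted p = 0.233). E4.5 replicate 3 had a summed 5.92 FPKM over the list against 154.6 and 80.8 FPKM in the other E4.5 libraries, and without it the median stage difference was 0.63.

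Contraction-associated genes were higher at E18.5 in 5 of 12 tested members (1.92% of all pairs) and higher at E0.5 in 3 (6.49%), Gja1 was higher at E4.5, and no stage difference was called. Oxtr, the oxytocin receptor, had 1.5, 1.06 and 1.1 FPKM at E15.5 and 6.76, 5.52 and 3.89 at E18.5, a labor day effect of 2.04. At implantation it ran from 3.82 to 11.1 FPKM at E0.5 and had 1.53, 3.28 and 9.23 FPKM in E4.5 replicates 1 to 3, so only E4.5 replicate 3 overlapped with E0.5. The stage difference was -1.26 (standard error 0.77, adjusted p = 0.427). Ptgs2 and Ptgs1, the cyclooxygenases, had stage differences of 2.41 and -0.73, also without a call. Gja1, the gap junction protein connexin 43, was 108 FPKM in E4.5 replicate 3 and 27.0 and 26.6 FPKM in the other E4.5 libraries, and its labor values of 1.88 to 16.4 FPKM overlapped between the days. Of 18 immediate early genes 6 were higher at E18.5 (1.92% of all pairs), and 1 had a called stage difference, in the lower direction (1.39% of all pairs). This was Egr1, a transcription factor induced within minutes of a stimulus (-2.28, adjusted p = 0.0366), whose call held in 3 of the 12 fits without a library. It had 0.368, 0.512 and 1.06 FPKM at E15.5 and 1.61, 3.38 and 2.16 at E18.5, and overlapped at implantation. Fos, in contrast, had nearly equal day effects of 1.85 and 1.78 (stage difference 0.07, standard error 0.31).

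In the epithelial list no member was lower on the first-named day of either contrast by the study's criterion. Of 14 tested members 7 were higher at E0.5 and 7 were higher at E18.5 under the study's criterion (6.49% and 1.92% of all pairs), 5 of them in both stages, and the median day effects were 1.13 and 0.96. Cldn4, a tight junction protein, passed at labor only, with 0.426, 3.41 and 6.59 FPKM at E15.5 and 13.8, 9.77 and 19.7 FPKM at E18.5. Its days overlapped at implantation (7.59 to 11.3 against 4.66 to 14.1 FPKM). The overlap came from E4.5 replicate 3 alone, which had the lowest value. E4.5 replicates 1 and 2, at 14.1 and 13.1 FPKM, lay above every E0.5 library. Krt8, a keratin, had 75.6, 53.9 and 65.7 FPKM at E0.5 against 14.4, 22.1 and 14.3 at E4.5, and 297, 225 and 244 FPKM at E18.5 against 51, 94.1 and 133 at E15.5. Its stage difference was 0.40 (standard error 0.45, adjusted p = 0.685). The epithelial factor Elf3 had day effects of 4.10 and 2.31, and the adhesion protein Cdh1 had 1.2 and 1.0. No stage difference of this list was called, and the list's median was 0.09, or -0.14 without E4.5 replicate 3. That library had a summed 119 FPKM over the list against 228 and 297 FPKM in the other E4.5 libraries. The part of placental RNA in the list's E18.5 values was not tested. Many estrogen-induced genes of the list above are epithelial, and the part of the epithelial level in their values was not tested. No stage difference was called among the 15 smooth muscle genes either, whose median was 0.31, or -0.29 without E4.5 replicate 3.

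**Figure D5:**
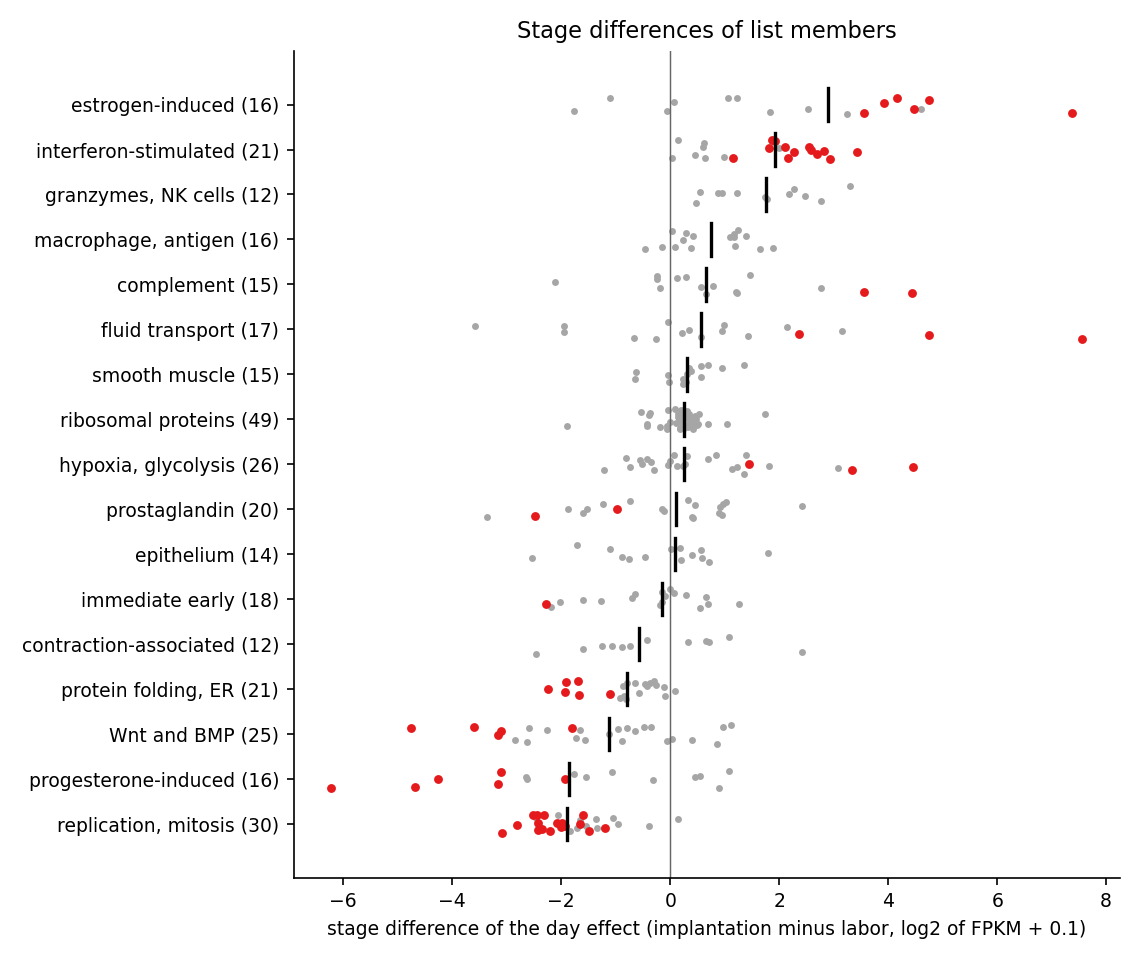
Stage difference of the day effect (horizontal, log2) of each tested member of 17 lists, with the number of tested members in brackets, called members in red, others in grey and a bar at the list's median. Replication genes lie below 0 in 29 of 30 with a median of -1.89, interferon-stimulated genes lie above 0 with a median of 1.93, and no epithelial, smooth muscle, ribosomal or granzyme gene is called.

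Known lncRNAs had 24 called stage differences among 2386 tested rows (1.01%, below the 2.70% of all pairs), 18 higher and 6 lower. Of the 2386, 5 reversed, beside 0.229% of all pairs. E230016K23Rik, at chr11:83582056-83623693 on the plus strand, had 0.307, 0.394 and 0.585 FPKM at E0.5 against 3.53, 4.92 and 3.39 FPKM at E4.5. At labor it had 0.127, 0.177 and 0.170 FPKM at E15.5 and 0.636, 0.362 and 0.432 FPKM at E18.5. The second day of each stage was higher with no overlap, and the stage difference was -4.09 (standard error 0.40, adjusted p = 7.71e-04). 2010016I18Rik, at chr3:106481982-106485913 on the minus strand, reversed the other way, with 2.73, 2.4 and 2.81 FPKM at E0.5, 0.985, 0.707 and 0.65 at E4.5, 1.72, 1.08 and 0.713 at E15.5 and 0.554, 0.285 and 0.511 at E18.5 (stage difference 2.82, adjusted p = 0.00974). Gm45145 was at 0 in the 3 E4.5 libraries and had 0.646 to 3.83 FPKM at E0.5, and it had 0.320 to 1.2 FPKM at E15.5 and 0.0610 to 0.324 at E18.5. Gm10535 reversed at under 1 FPKM.

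Other lncRNAs moved in one stage. Oip5os1, also called Cyrano, overlapped between the days of implantation (15.9 to 17.8 FPKM at E0.5 against 15.8 to 21.7 at E4.5) and lower at E18.5 (5.54, 4.24 and 3.46 FPKM) than at E15.5 (13.8, 11.6 and 12.7 FPKM), a stage difference of 1.43 (standard error 0.26, adjusted p = 0.0183). Dlx6os1 had 9.12 to 9.91 FPKM at E0.5 against 0.0757 to 0.831 at E4.5, and 0.206 to 0.609 FPKM at labor (stage difference 3.95, adjusted p = 0.0174), and Gm39214 had a stage difference of 1.83 (adjusted p = 0.0122). The calls of Oip5os1 and Dlx6os1 held in 11 and 10 of the 12 fits without a library, and that of Gm39214 in all 12. On the lower side, Gm16152, Gm28730 and the row of Mir322 and its host C430049B03Rik had stage differences of -2.15, -4.07 and -3.17, which held in 1, 6 and 3 of the 12 fits without a library. Rows that hold lncRNAs discussed in the study, namely Dnm3os (-0.82), Hand2os1 (-1.21), Snhg1 (-0.40) and Mir99ahg (0.43), had no called stage difference, with adjusted p from 0.541 to 0.606, except that the Hand2os1 row had -2.38 (adjusted p = 0.0208) without E4.5 replicate 3. Without strand in the stated counting, reads of these loci and of genes that overlap them cannot be told apart.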

How the data were processed

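RNA-seq of 12 mouse uteri was used, 3 per day. Per the labels, libraries were poly(A) selected and sequenced on a NovaSeq instrument, whereas the study's methods name Ribo-Zero and a HiSeq instrument. After trimming by Cutadapt, the authors used Bowtie2 and Tophat2 for alignment, merged transcripts and estimated FPKM with StringTie and Ballgown, and deposited FPKM in 1 gene table per stage. The submitters' processing notes list Bowtie 0.12.2, HISAT2 2.0 and StringTie 1.3.0. The deposited implantation table also gives whole-number counts, used for depth and for edgeR and DESeq2 alternatives. Its 0.0001 FPKM, always with a count of 0, was set to 0. The 87235 and 40787 rows of the 2 tables gave 32724 pairs with each row used a single time. The authors' fold-change and p-value columns were not used.

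The main test was limma 3.58.1 (trend, R 4.3.3) on log2(FPKM + 0.1), a group-means fit of 12 libraries in which all groups share 1 spread, with Benjamini-Hochberg adjustment over 21397 pairs. The study names edgeR and Ballgown, and the labor table held no counts. Alternatives were edgeR 4.0.16 and DESeq2 1.42.0 (implantation), other filters, pseudocounts, scalings, array weights, a replicate block and leaving out each library. The code was tested on simulated data. Figures used matplotlib 3.10.9 in Python 3.11.15. The 36 gene lists and the tests were chosen with earlier results of these data known. Named genes are the 10 largest differences per direction among called protein-coding and lncRNA pairs with at least 1 FPKM in each stage, up to 8 reversed pairs per direction, the leading members of each list and any needed to read it, the primer loci, lncRNAs the paper names and up to 5 lncRNAs per direction. Mice are the replicates.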

Additional observations from a re-analysis of the deposited data

Results flagged for a closer look

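The 12 genes with at least 1 FPKM in both stages that the naming rule takes from the reversed pairs were flagged because the day moved them in opposite directions in the 2 stages and the difference itself passed the test (limma, adjusted p under 0.05). The stage difference was 6.80 for Ccl28, 5.42 for Pglyrp1, 4.17 for Padi2, 3.33 for Ankrd37, 2.75 for the row of Serpina3g, 2.72 for Avil, 2.48 for Ppp1r3b and 2.47 for Myo1g, all with E0.5 and E15.5 as the higher days. It was -4.84 for the row of Srd5a1, -4.76 for Wnt7b, -4.52 for Rtn1 and -2.37 for Flt1, with E4.5 and E18.5 as the higher days. Ccl28, Pglyrp1, Padi2, Ankrd37, Srd5a1 and Flt1 kept the call without each of the 12 libraries. Groups of 3 libraries were not tested for outlying samples.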

How the results depend on the processing

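With a replicate block inside each stage 69 pairs were called in place of 577, 66 of them shared, and 15 in place of 49 reversed, but same-numbered libraries did not deviate together (correlations -0.122 to 0.0335), so the numbers do not pair them. With array weights, which gave E4.5 replicate 3 a weight of 0.203, 2040 pairs were called, 576 of them among the 577, and 81 reversed. Leaving out 1 library gave 187 to 1264 called pairs, 26 to 74 reversed pairs, 2311 to 3031 by the study's criterion, 2933 to 3318 for the implantation day effect and 573 to 1091 for the labor day effect. With a mean of at least 1 FPKM in each stage, 1275 passed the study's criterion (2553 before), 14 reversed, 1419 passed at implantation (3006) and 305 at labor (807). With a pseudocount of 1 these were 1137, 8, 1173 and 277. At labor 1274 passed with no filter and 1217 with the filter in either stage. In the counts, edgeR called 2692 and DESeq2 2936 pairs at implantation. Of 1068 values of named genes under the alternatives 931 kept their call and direction, 129 lost the call, 3 gained one, 5 uncalled values of Mmp11 and the Rpl24 row changed sign, and no called value reversed. At an unadjusted p under 0.05, 3901 pairs differed. The labor depth is unknown, which limits rows of low FPKM. Promoter motifs were not run for want of promoter sequences.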

Other observations

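Several lists that the text has not described held a few called genes. Of 23 matrix genes, Vcan, the proteoglycan versican, had 0.861 to 1.02 FPKM at E0.5, 6.13 to 12.7 at E4.5 and 14.3 to 18.8 at labor (stage difference -2.93, adjusted p = 0.00178 from limma), while Lox, which crosslinks collagen (2.80, adjusted p = 0.0184), and decorin, Dcn (1.6, adjusted p = 0.0482), had a higher day effect at implantation. Of 19 tested matrix proteases and inhibitors 1 was called, with a higher day effect at implantation (1.30% of all pairs), and none was called lower. Among the uncalled, the protease Mmp7 had 59.9, 32.2 and 4.36 FPKM at E4.5 against 0.655 to 8.10 at E0.5, and 81.2 to 126 FPKM at E18.5 against 15.0 to 36.7 at E15.5. Its stage difference of -5.25 did not pass (adjusted p = 0.0624), and it was -6.35 without E4.5 replicate 3 (adjusted p = 0.00862). In the fluid transport list Clca1, of the same family as Clca3b, had 178 to 516 FPKM at E0.5 and 0.0404 to 0.918 at E4.5, against 0.0460 to 2.68 at labor (stage difference 7.56, adjusted p = 0.00954), and the water channel Aqp1 had 2.37 (adjusted p = 0.0348). Alpl, alkaline phosphatase, had 11.3 to 16.5 FPKM at E0.5, 1.29 to 1.36 at E4.5 and 0.984 to 1.52 at labor (stage difference 3.07, adjusted p = 4.39e-04). The calls of Vcan, Clca1 and Alpl held without each of the 12 libraries, and those of Lox, Dcn and Aqp1 in 9, 2 and 4 of the 12 fits. The prostaglandin receptor Ptger2 had -2.49 (adjusted p = 0.0157), and the angiogenic ligand Angpt2 had -1.48 (adjusted p = 0.0229). Their calls held in 10 and 8 of those fits, and that of Ptger2 was lost without E15.5 replicate 2 or E18.5 replicate 2.

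Few or none were called in other lists. None was called among 49 ribosomal protein genes, whose median stage difference was 0.26, 30 genes of oxidative phosphorylation (-0.12), 21 metallothionein and redox genes (-0.28, with 1 called under either scaling) or 10 endothelial genes (-0.49, with 1 called without E4.5 replicate 3). Of 22 genes of cholesterol synthesis 1 was called (1.39% of all pairs), Stard4 (-3.29, adjusted p = 0.0482), whose call held in 2 of the 12 fits without a library and was lost under either scaling, and the list's median of -1.04 was -0.07 without E4.5 replicate 3, the library with the ovary markers. Of the 8 tested ovary markers none was called, and without that library 2 were called lower, with medians of -2.74 and -1.08.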
